A study of Mus musculus with 18 samples.

Results

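Litter 2 was 1 of the 3 litters of newborn (P0) mice from which the external granule cell layer (EGL) of the cerebellum was measured, and it supplied 6 of the 18 arrays. Its arrays were chosen by their labels, which name the slide, and the study's methods state that the 6 littermates of a litter shared 1 slide. Litter 2 was set against litters 1 and 3, with 6 arrays each. The mice of a litter shared dam, birth and slide, so that these cannot be told apart in any difference described here. Each litter gave 3 Ts1Cje and 3 euploid mice, 1 array for each mouse. Ts1Cje mice carry 3 copies of the segment of mouse chromosome 16 (Mmu16) from Sod1 to Znf295 and are deleted for a segment of Mmu12, and their euploid littermates carry neither change. All mice were labelled B6EiC3SnF1/J A/a, a mixed background, and were bred from Ts1Cje sires. The labels give the stage of every mouse as P0 and name no treatment. In litter 2 the Ts1Cje mice were replicates 1, 3 and 6 and the euploid mice replicates 2, 4 and 5. The source name of replicates 4 and 5 reads cerebellum, while their tissue label and extraction protocol name the EGL. No other array of the series carries this mismatch.

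The EGL is a transient sheet at the surface of the newborn cerebellum in which granule cell precursors divide under the influence of Sonic hedgehog from the Purkinje cells below. Cells that leave the cell cycle gather in its inner part, extend parallel fibres and migrate inward along glial fibres. The meninges lie directly on the sheet and vessels reach it from them, so that a dissected layer can hold meningeal, vascular, glial and blood cells besides granule cells. In such a bulk sample fewer cells of a type and less RNA per cell cannot be told apart.

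Signals are log2 values of bead arrays, and a difference of 1 is a factor of 2 in signal. Tested were the 11297 probes with a mean log2 signal of at least 7.14 over the 18 arrays, which represent 7136 named genes by their brightest probe. A probe was called where its adjusted p (limma, Benjamini-Hochberg over all probes tested) was below 0.05. On a list of granule cell precursor genes, the bright members in litter 2 included the transcription factors Zic1 and Pax6 and the cyclin Ccnd2. Their mean signals were 12.82, 11.96 and 12.56, against 12.75, 12.14 and 12.46 in litter 1 and 12.79, 11.87 and 12.82 in litter 3. Zic1 is also on the list of meningeal genes. Barhl1, another precursor gene, was dim in litter 2, between 7.06 and 7.38. No difference of Zic1, Pax6 or Ccnd2 between litter 2 and the other litters was called. Of the 14 tested genes of the precursor list, 3 were lower than in litter 3, among them Sfrp1 and Cxcr4, against 13.6% of all named genes. The mean signal over the 14 genes was 10.82 in replicate 1 of litter 2 and 10.41 to 10.62 in its other mice. It lay between 10.63 and 10.71 in litter 1 and between 10.64 and 10.87 in litter 3, and this mean was not tested. The female transcript Xist was high in 2 and Y-linked genes in 4 mice of litter 2, against 3 and 2 in litter 1 and 2 and 4 in litter 3, and 1 mouse of litter 1 (replicate 4) had neither.

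The spread of signals differed more among the arrays of litter 2 than among those of the other litters. Their SD of log2 signals over all probes was 1.54 ± 0.0607 (SD, n = 6) and lay between 1.46 and 1.61, against 1.57 ± 0.0324 (n = 12) in litters 1 and 3, where it lay between 1.52 and 1.63. The narrowest arrays of the series were replicates 2 (1.46) and 5 (1.48) of litter 2, both euploid. The means differed by -0.033 (p = 0.154, exact permutation test, two-sided, 7056 splits with genotypes kept balanced). A narrow array has lower signals for bright probes, because every array has the same mean over all probes. The mean over the tested probes was accordingly 8.86 and 8.89 on these 2 arrays, against 8.99 to 9.13 on the other 4 arrays of litter 2 and 8.96 to 9.15 in litters 1 and 3. Many counts below moved without these 2 arrays, and the main ones are given with the values without them.

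The mean of litter 2 lay between those of litters 1 and 3 on most probes that set these apart. Litters 3 and 1 differed at 3077 probes (27.2% of those tested), and on 2429 of these (78.94%) the mean of litter 2 fell between the other 2 means. These probes were picked from the same arrays because litters 1 and 3 lie apart on them, which favours any other litter falling between. The share expected from this choice was not computed, so the count and the positions below are a description. On a scale that puts litter 1 at 0 and litter 3 at 1, the median position of litter 2 was 0.396. It was nearer to litter 1 for the 1730 probes higher in litter 3 (0.199), and beyond the middle for the 1347 probes lower in litter 3 (0.597). After quantile normalization these 2 positions were 0.371 and 0.470, and without replicates 2 and 5 they were 0.345 and 0.483. Mice of litter 2 were spread along this scale. For the probes higher in litter 3, the medians were 0.718 in replicate 1, 0.307 in replicate 6, 0.288 in replicate 4, 0.157 in replicate 3 and below 0 in replicates 2 and 5. On principal components of the tested probes, litter 2 lay between -9.72 and 8.51 on the component that holds 27.2% of the variance, against -25.6 to -7.27 for litter 1 and 11.35 to 19.71 for litter 3. Litter 2 overlapped with litter 1 on it and not with litter 3.

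**Figure D1:**
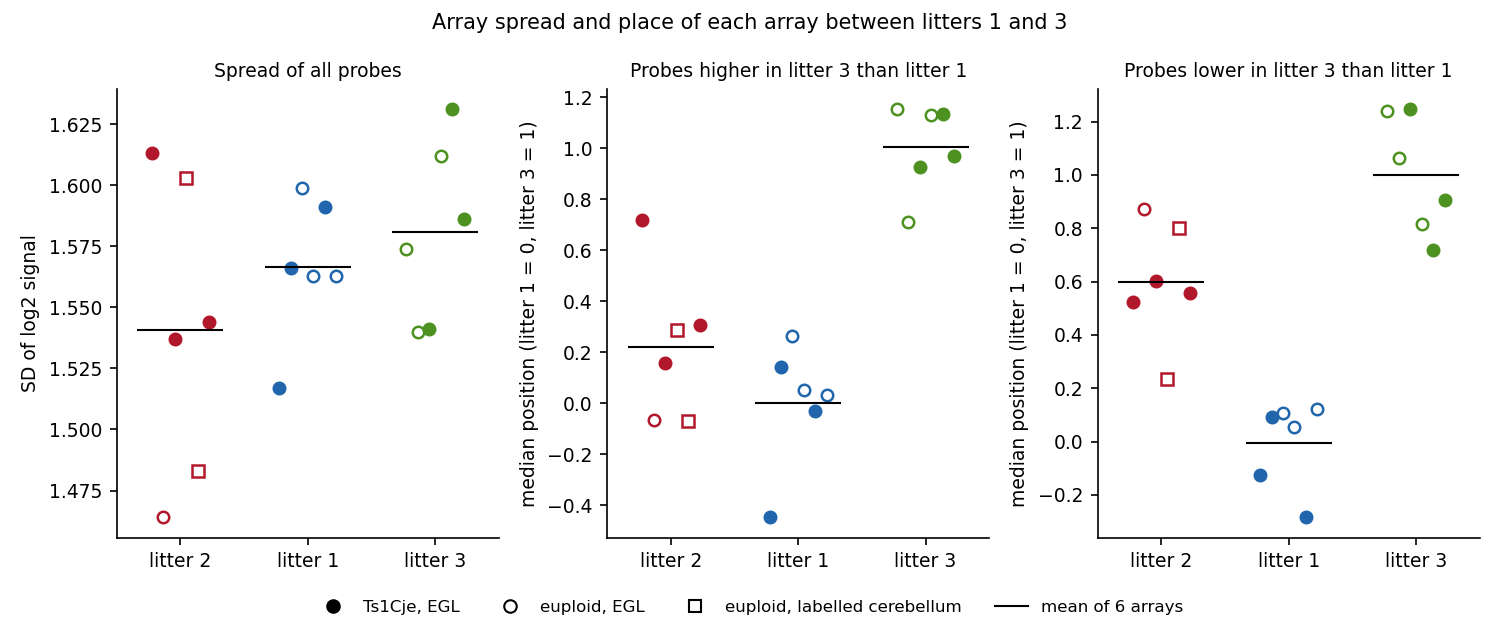
Left, SD of log2 signals over all probes for each array; middle and right, median position of each array between the mean of litter 1 (0) and the mean of litter 3 (1), over the 1730 probes higher and the 1347 probes lower in litter 3 than in litter 1. Litter 2 has the narrowest 2 arrays (1.46 and 1.48), and in the middle plot replicate 1 (0.718) is nearest to litter 3, while replicates 2, 3 and 5 lie within the range of litter 1. In the right plot replicates 2 (0.873) and 5 (0.802) lie within the range of litter 3.

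Set against the mean of both other litters, litter 2 showed few differences. Of the 11297 probes, 60 were called (0.531%), 23 higher and 37 lower, and 2324 had an unadjusted p below 0.05. The same contrast called 1928 probes (17.1%) for litter 1 and 3041 (26.9%) for litter 3. Of the 60 probes, 58 had the same sign against each litter and 31 were also called against each of them. In all, 49 probes (0.434%) were called with the same sign against litter 1 and against litter 3, 20 higher and 29 lower. A further 59 probes were called against both litters with opposite signs, 53 of them below litter 1 and above litter 3.

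These counts depended on single arrays and on scaling. Without replicate 1 of litter 1 there were 654 calls and without replicate 1 of litter 2 there were 399. Without replicate 4 of litter 2 there were 97, and 39, 34 and 28 without its replicates 2, 5 and 6. Leaving out replicate 3 or 6 of litter 1, or replicate 5 of litter 3, gave 30, 37 or 29 calls. The split between higher and lower was 102 to 59 after quantile normalization and 41 to 7 without replicates 2 and 5 of litter 2, so the excess of lower probes was not kept. Of the 30 named genes called, none remained called without the 2 arrays labelled cerebellum, where 5 probes were called (1781 at an unadjusted p below 0.05). With litter as a random block (correlation 0.259), no probe was called by limma, and 169 had an unadjusted p below 0.05.

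Among named genes, 6 were higher (0.0841% of 7136) and 24 lower (0.336%) in litter 2. The 6 higher genes included a Golgi calcium and manganese pump (Atp2c1), neuronal membrane proteins (Slitrk4 and Grm7) and the RNA-binding translational repressor Pum2. Grm7, a presynaptic glutamate receptor, had signals of 8.28, 8.57, 8.35, 8.74, 8.28 and 8.08 in replicates 1 to 6 of litter 2. Its lowest, median and highest signals were 7.68, 7.96 and 8.14 in litter 1 and 7.79, 8.03 and 8.15 in litter 3. Only replicate 6 of litter 2 lay within the range of the other litters, and the difference from their mean was 0.41 ± 0.074 (SE, 1.33-fold, adjusted p = 0.0153). Pum2 had signals of 8.83, 8.53, 8.55, 8.92, 8.44 and 8.90 in litter 2, against medians of 8.20 in litter 1 and 8.30 in litter 3 and highest signals of 8.47 in each. All but replicate 5 lay above every other mouse, and Pum2 differed by 0.44 ± 0.094 (adjusted p = 0.0357). Slitrk4, a transmembrane protein that shapes neurites and synapses, had signals of 8.52, 8.44, 8.64, 8.91, 8.55 and 8.20 in litter 2, with 8.12 to 8.60 in litter 1 and 7.44 to 8.05 in litter 3. It was thus like litter 1 (difference 0.12 ± 0.108) and above litter 3 without overlap (0.82 ± 0.108, adjusted p = 0.000837). These 3 genes were also called without replicates 2 and 5, at adjusted p of 0.0273 for Grm7, 0.0273 for Pum2 and 0.033 for Slitrk4. The calcium-binding protein Necab1 (0.33 ± 0.0692, adjusted p = 0.0315) and 6430571L13Rik (0.44 ± 0.0836, adjusted p = 0.0215) overlapped with the other litters.

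Among the 24 lower genes were Eef2k, the kinase that slows elongation, Eif4ebp2, a repressor of cap-dependent initiation, Tsen34, a subunit of the tRNA splicing endonuclease, and Khsrp, a protein of AU-rich mRNA decay. Eef2k had signals of 8.09, 7.60, 8.07, 8.01, 7.48 and 7.48 in litter 2, against 8.49 to 8.94 in litter 1 and 7.73 to 8.25 in litter 3. It was below litter 1 without overlap (-0.87 ± 0.129, adjusted p = 0.000522) and overlapped with litter 3 (-0.21 ± 0.129, adjusted p = 0.28). Eif4ebp2 had signals of 9.60, 9.36, 9.53, 9.37, 9.25 and 9.24 in litter 2, against medians of 9.92 in litter 1 and 9.65 in litter 3, and differed from their mean by -0.41 ± 0.0776 (adjusted p = 0.0217). Khsrp differed by -0.36 ± 0.07 (adjusted p = 0.0228) and Tsen34 by -0.36 ± 0.0749 (adjusted p = 0.0294). Khsrp was also the only call among the 25 tested splicing factors.

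Plxnd1, a semaphorin receptor of vessels and neurons, had signals of 9.50, 9.14, 9.35, 9.20, 9.15 and 9.38 in litter 2, against 9.67 to 9.86 in litter 1 and 9.39 to 10.18 in litter 3. It lay below litter 1 in every mouse and differed from the mean of both litters by -0.45 ± 0.0848 (adjusted p = 0.0206). Ift122, which carries cargo back along the primary cilium where hedgehog signals are received, had a median of 7.63 in litter 2, against 8.05 in litter 1 and 8.03 in litter 3, and differed by -0.38 ± 0.0838 (adjusted p = 0.0416). Ift122 and Plxnd1 are neighbours on Mmu6 and were the only pair of neighbouring tested genes called in the same direction. The orphan receptor Gpr19, also on Mmu6, differed by -0.51 ± 0.0916 (adjusted p = 0.0153), and on this chromosome 4 of 352 tested genes (1.14%) were lower, against 0.336% of all named genes and 3 of 251 on Mmu14. Sfrp1, a secreted antagonist of Wnt on the list of granule cell precursor genes, had signals of 10.27, 9.76, 10.01, 8.66, 9.37 and 10.17 in litter 2, against 9.91 to 10.27 in litter 1 and 10.27 to 10.80 in litter 3. Its difference of -0.61 ± 0.131 (adjusted p = 0.0393) had its lowest values in replicates 4 and 5, the arrays labelled cerebellum. Sfrp1 was the only call of this contrast among the 14 tested genes of granule cell precursors. Their median difference was -0.11, against -0.08 over all named genes. The other lower genes of the 12 with the largest differences were the mitochondrial enzyme of proline breakdown Aldh4a1 (-0.39), the corepressor Irf2bp1 (-0.39) and Ppp6r3 (-0.32), with Bst2 (-0.55) described with litter 3 below.

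On 5 probes (0.0443%) litter 2 did not overlap with any of the other 12 arrays, and all 5 were called. Apart from Ppp6r3 they were named after their values were seen. Ppp6r3, a regulatory subunit of protein phosphatase 6, lay between 9.88 and 10.14 in litter 2, against 10.15 to 10.52 in litter 1 and 10.21 to 10.47 in litter 3. Ccdc25 lay between 9.24 and 9.45 in litter 2, against 9.50 to 9.73 in litter 1 and 9.45 to 9.76 in litter 3, where its lowest signal was above the highest of litter 2 by less than the second decimal shows. A probe of Rpl23, a protein of the large ribosomal subunit, lay between 8.76 and 9.13 in litter 2, against 9.35 to 9.66 in litter 1 and 9.17 to 9.72 in litter 3, and differed by -0.54 ± 0.0792 (adjusted p = 0.00402). The brighter probe of Rpl23 differed by -0.14 (adjusted p = 0.146), so that the 2 probes of the gene disagreed. The unnamed probe ILMN_1243988 was also below the other litters (-0.35, adjusted p = 0.00998), and the unnamed ILMN_1224932 was above them (0.72, adjusted p = 0.00998).

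**Figure D2:**
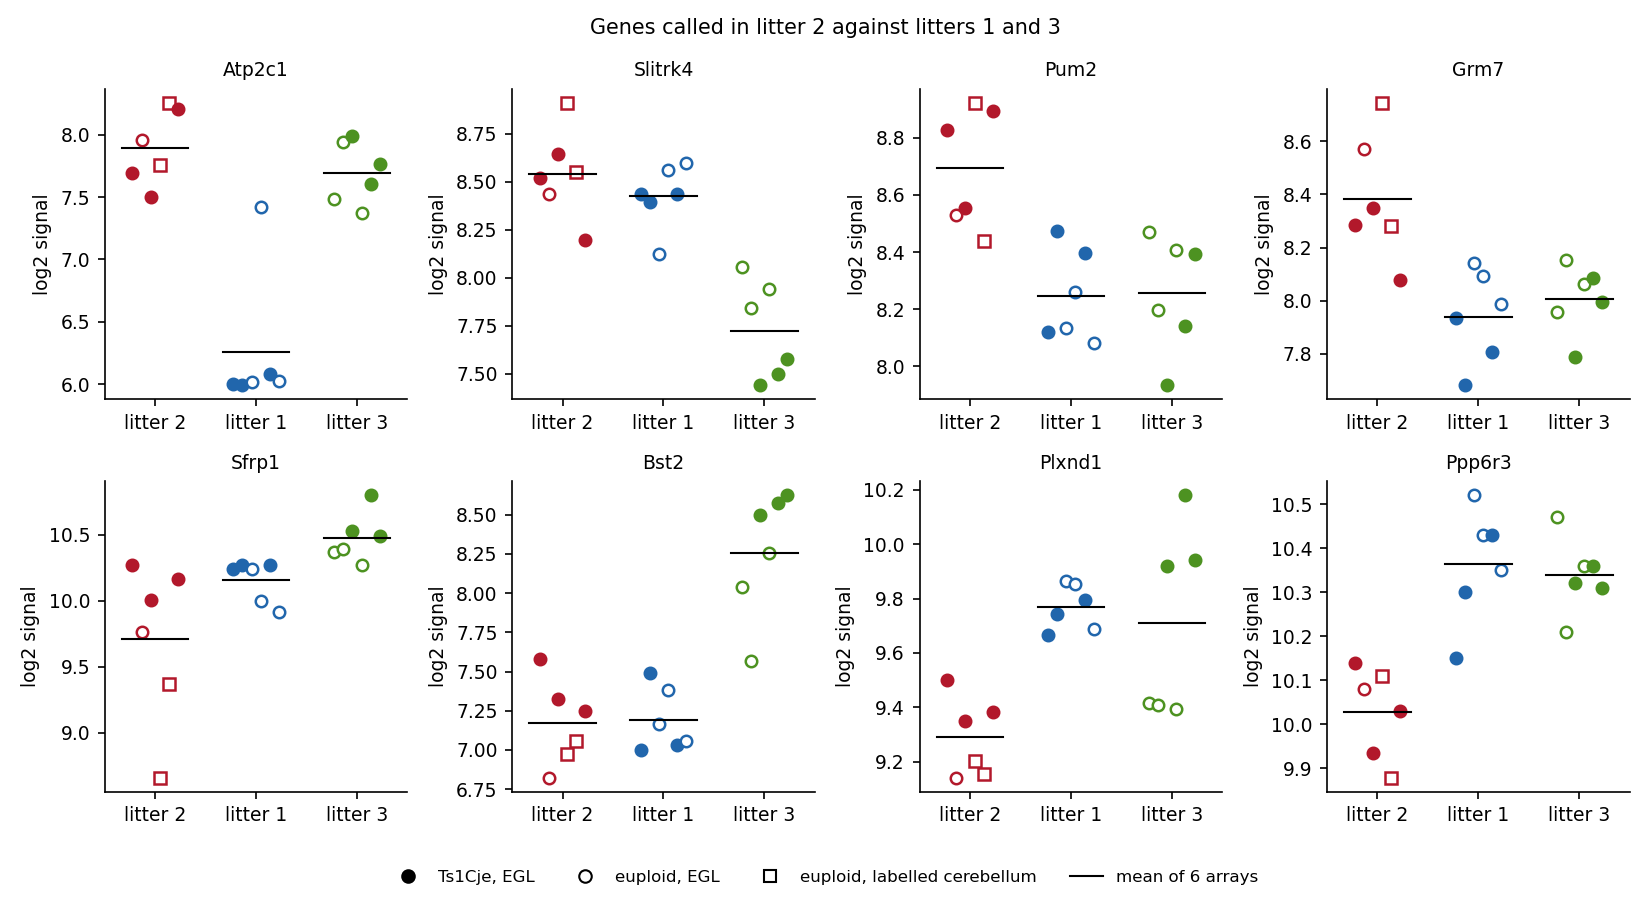
Log2 signal of 8 called genes on each array, with litter 2 at the left of each plot, filled symbols for Ts1Cje and open symbols for euploid mice. Grm7, Pum2 and Ppp6r3 separate litter 2 from nearly all other mice, Slitrk4 separates it from litter 3, Bst2 does so but for 1 mouse of each litter, and Atp2c1 lies far above 5 of the 6 mice of litter 1.

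Among called probes, the largest differences belonged to probes without a gene name. Of the 60 called probes 24 were unnamed, and 17 of the 23 higher probes were among them. ILMN_1232093 had signals of 9.76, 10.73, 8.61, 10.10, 10.78 and 10.07 in litter 2, against medians of 8.17 in litter 1 and 8.65 in litter 3. It differed by 1.58 ± 0.204 (2.99-fold, adjusted p = 0.00195), and the highest signals were those of the narrow arrays, replicates 2 and 5. ILMN_1259069 (1.30 ± 0.178) and ILMN_1252983 (1.21 ± 0.16) likewise had replicate 3 lowest and replicates 2 and 5 highest in litter 2. Without replicates 2 and 5 the adjusted p of the 3 probes were 0.0159, 0.0224 and 0.0117.

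Against litter 3 alone, the calls in litter 2 included 13 of 15 genes of endothelial cells, 16 of 22 of S phase, 11 of 17 of mitosis and 3 of 6 of the interferon response, all of them lower. Of these, 1 endothelial and 1 interferon gene had means under 7.14 in litters 2 and 1. Of the named genes, 974 (13.6%) were lower and 118 (1.65%) higher. This imbalance moved with scaling: after quantile normalization 644 (9.02%) were lower and 462 (6.47%) higher. Without replicates 2 and 5 there were 307 lower and 159 higher genes. The median difference over all named genes was -0.10, and -0.02 after quantile normalization. Against litter 1, 178 genes (2.49%) were lower and 54 (0.757%) higher, with a median of -0.05, and without replicates 2 and 5 there were 71 lower and 192 higher. The 2 comparisons share the arrays of litter 2, and their values are given side by side.

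**Figure D3:**
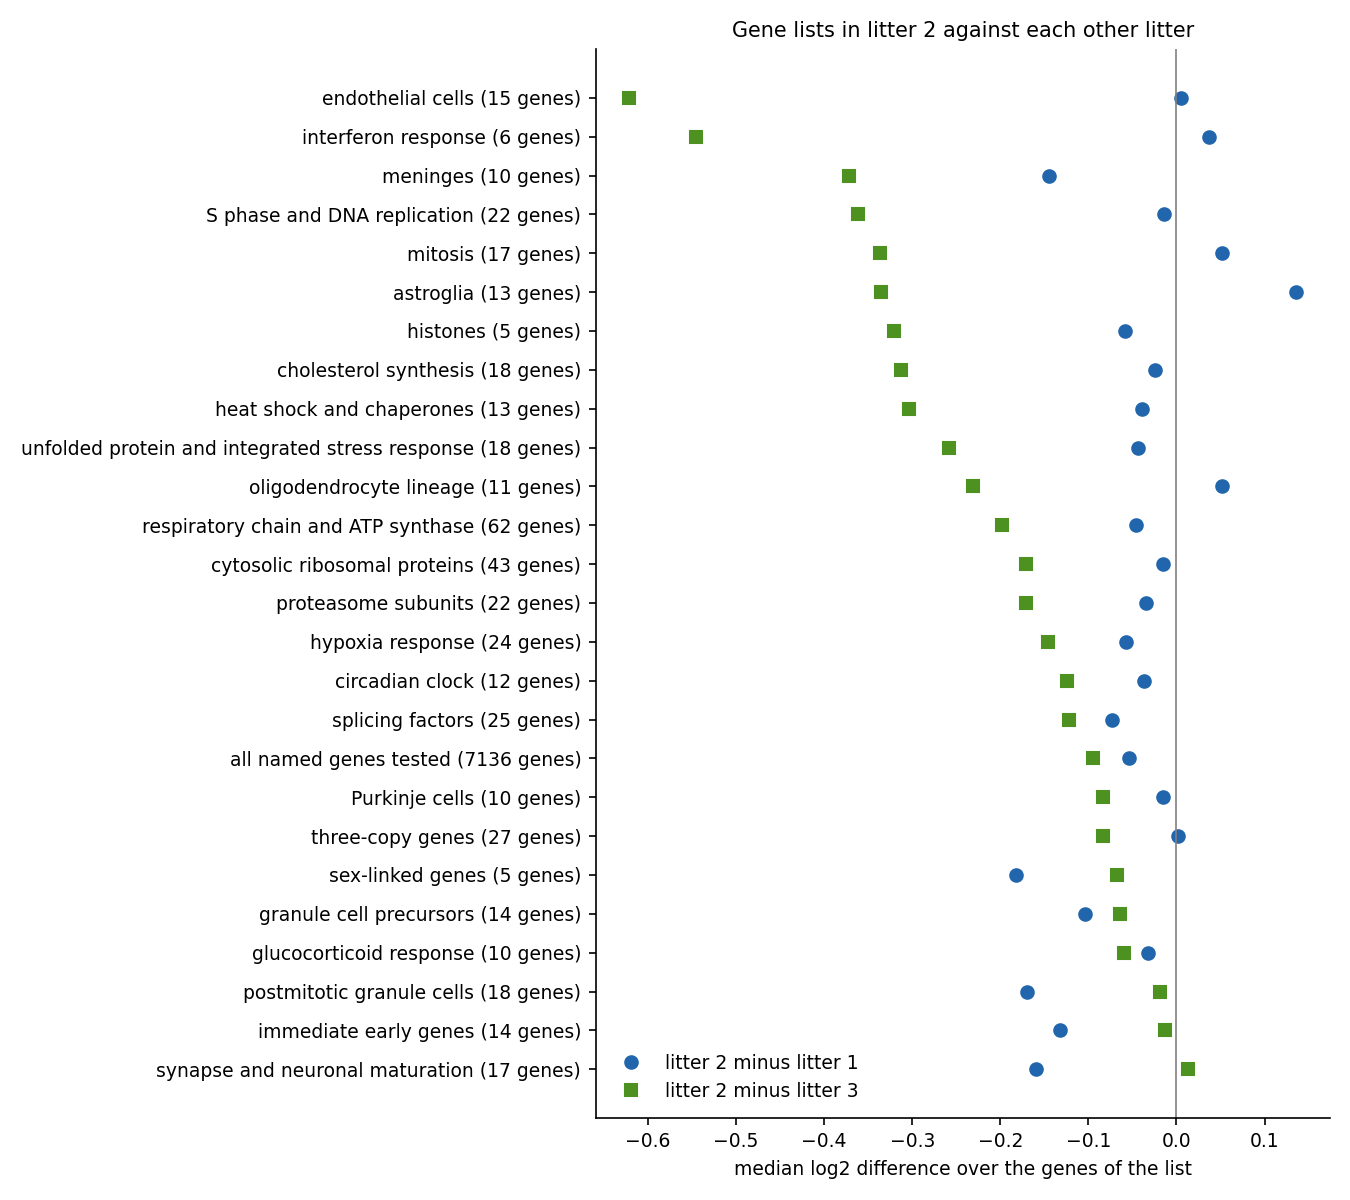
Median log2 difference of litter 2 from litter 1 (circles) and from litter 3 (squares) over the tested genes of each list with at least 5 of them. Squares reach -0.62 for endothelial genes and lie below -0.30 for 8 further lists, while circles lie between -0.18 and 0.14.

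Among lists with at least 5 tested genes, endothelial genes showed the lowest median. Of 15 tested, 13 were lower than in litter 3, 1 of which had passed the limit of 7.14 only through litter 3, and none higher, with a median of -0.62, against -0.10 over all genes. The mean signal of the 15 genes lay between 8.41 and 9.04 in litter 2, against 8.47 to 9.06 in litter 1 and 8.86 to 9.75 in litter 3. Litter 2 was level with litter 1, from which the median difference was 0.01. Cldn5, the claudin that seals brain endothelium, had signals of 11.02, 10.56, 10.93, 10.92, 10.44 and 10.84 in litter 2, against 10.60 to 11.28 in litter 1 and a lowest signal of 11.02 and a median of 11.70 in litter 3. Its difference from litter 3 was -0.78 ± 0.142 (adjusted p = 0.00368). Slc38a5, an amino acid transporter of brain capillaries, differed from litter 3 by -1.03 ± 0.164 (adjusted p = 0.00212), and Egfl7, secreted by endothelial cells, by -0.88 ± 0.149 (adjusted p = 0.00302). After quantile normalization 12 endothelial genes were lower, and 7 without replicates 2 and 5. Of the 4 tested genes of pericytes and smooth muscle, 2 were lower.

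Meningeal and choroid plexus genes varied widely between mice. Of 10 tested meningeal genes 4 were lower than in litter 3, namely Dcn, Igf2, Col6a1 and Slc6a13. Decorin (Dcn), a proteoglycan of meningeal fibroblasts, had signals of 9.78, 6.38, 5.60, 5.83, 6.03 and 8.73 in litter 2. Its lowest, median and highest signals were 5.46, 8.34 and 9.57 in litter 1 and 5.85, 10.07 and 10.98 in litter 3. In litter 2 replicates 1 and 6, both Ts1Cje, were high and the other 4 mice were low. The difference from litter 3 was -2.37 ± 0.749 (adjusted p = 0.0399), and that from litter 1 was -0.87 ± 0.749 (adjusted p = 0.544). Slc6a13, a transporter of GABA and taurine in the meninges, was high in the same mice, with 8.27 and 7.52 in replicates 1 and 6 and 5.86 to 6.12 in the other 4 mice of litter 2. Its means of 6.58 in litter 2, 6.99 in litter 1 and 8.32 in litter 3 show that it passed the limit of 7.14 only through litter 3, so that its difference of -1.74 is a description. Transthyretin (Ttr), made by choroid plexus, lay between 6.91 and 8.38 in litter 2, against 6.54 to 6.98 in litter 1 and 7.69 to 13.58 in litter 3, where 3 mice were at 9.98, 11.68 and 13.58. Without replicates 2 and 5 of litter 2, Dcn (adjusted p = 0.11), Slc6a13 (0.0649), Igf2 (0.0743) and Ttr (0.108) were no longer called. The mean over the 10 meningeal genes lay between 9.43 and 10.57 in litter 2, against 9.61 to 10.41 in litter 1 and 9.61 to 11.16 in litter 3, and its part in the other differences was not tested.

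The homeobox gene Otx1 separated litter 2 from litter 3 with no overlap. It had signals of 6.13 to 8.05 in litter 2, with 3 mice near the upper end, against 6.32 to 7.88 in litter 1 and 8.58 to 9.52 in litter 3. The difference from litter 3 was -1.77 ± 0.294 (3.42-fold lower, adjusted p = 0.00277, and 0.00577 without replicates 2 and 5), and that from litter 1 was 0.27 ± 0.294 (adjusted p = 0.641). Otx2, a related gene also found in choroid plexus, lay between 6.11 and 9.84 in litter 2, 5.81 and 8.68 in litter 1 and 6.11 and 9.31 in litter 3, with no call.

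Of 6 tested genes of the interferon response, Bst2, Ifitm3 and Trim25 were lower than in litter 3. Bst2, or tetherin, holds budding viruses at the cell surface. It had signals of 7.58, 6.82, 7.32, 6.98, 7.06 and 7.25 in litter 2, against a median of 7.11 in litter 1 and 8.04, 7.56, 8.50, 8.25, 8.57 and 8.62 in litter 3. Litter 2 overlapped with litter 1 and met litter 3 only where its replicate 1 (7.58) lay above replicate 2 of litter 3 (7.56). Bst2 differed from litter 3 by -1.09 ± 0.132 (2.13-fold lower, adjusted p = 0.000774). Its difference from litter 1 was -0.02 ± 0.132, so that its call against the mean of both litters came from litter 3. Ifitm3, which blocks the entry of viruses, differed from litter 3 by -1.10 ± 0.168 (adjusted p = 0.00199) without overlap. Trim25, a ubiquitin ligase of RNA sensing, had means of 6.95 in litter 2, 6.93 in litter 1 and 7.73 in litter 3, and since it passed the limit of 7.14 only through litter 3 its difference of -0.78 is a description. The calls of Bst2 and Ifitm3 against litter 3 were kept after quantile normalization, without replicates 2 and 5 and without the arrays labelled cerebellum. The call of Bst2 against the mean of both litters was lost without replicates 2 and 5 and without the arrays labelled cerebellum. Irf9, B2m and H2-D1 differed from litter 3 by -0.18, -0.31 and -0.28 and were not called. B2m, the light chain of MHC class I, was higher than in litter 1 (0.65 ± 0.18, adjusted p = 0.0409). The promoter of Bst2 holds 2 overlapping copies of the letters GAAA, any 2 bases and GAAA again, searched on both strands, which resemble the element bound by interferon regulatory factors. These letters are found in the promoter window around the start site of 3.99% of 27025 genes in RefSeq, and in Bst2 and Ifitm3 of the 3 lower genes. Bst2 is shown because it is the interferon gene called against the mean of both litters. The stretch around these letters, GRCm38.p6 chr8:71537567-71537628, minus strand, has the copies in capitals.
Bst2: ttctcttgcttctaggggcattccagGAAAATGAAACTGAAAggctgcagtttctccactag

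**Figure D4:**
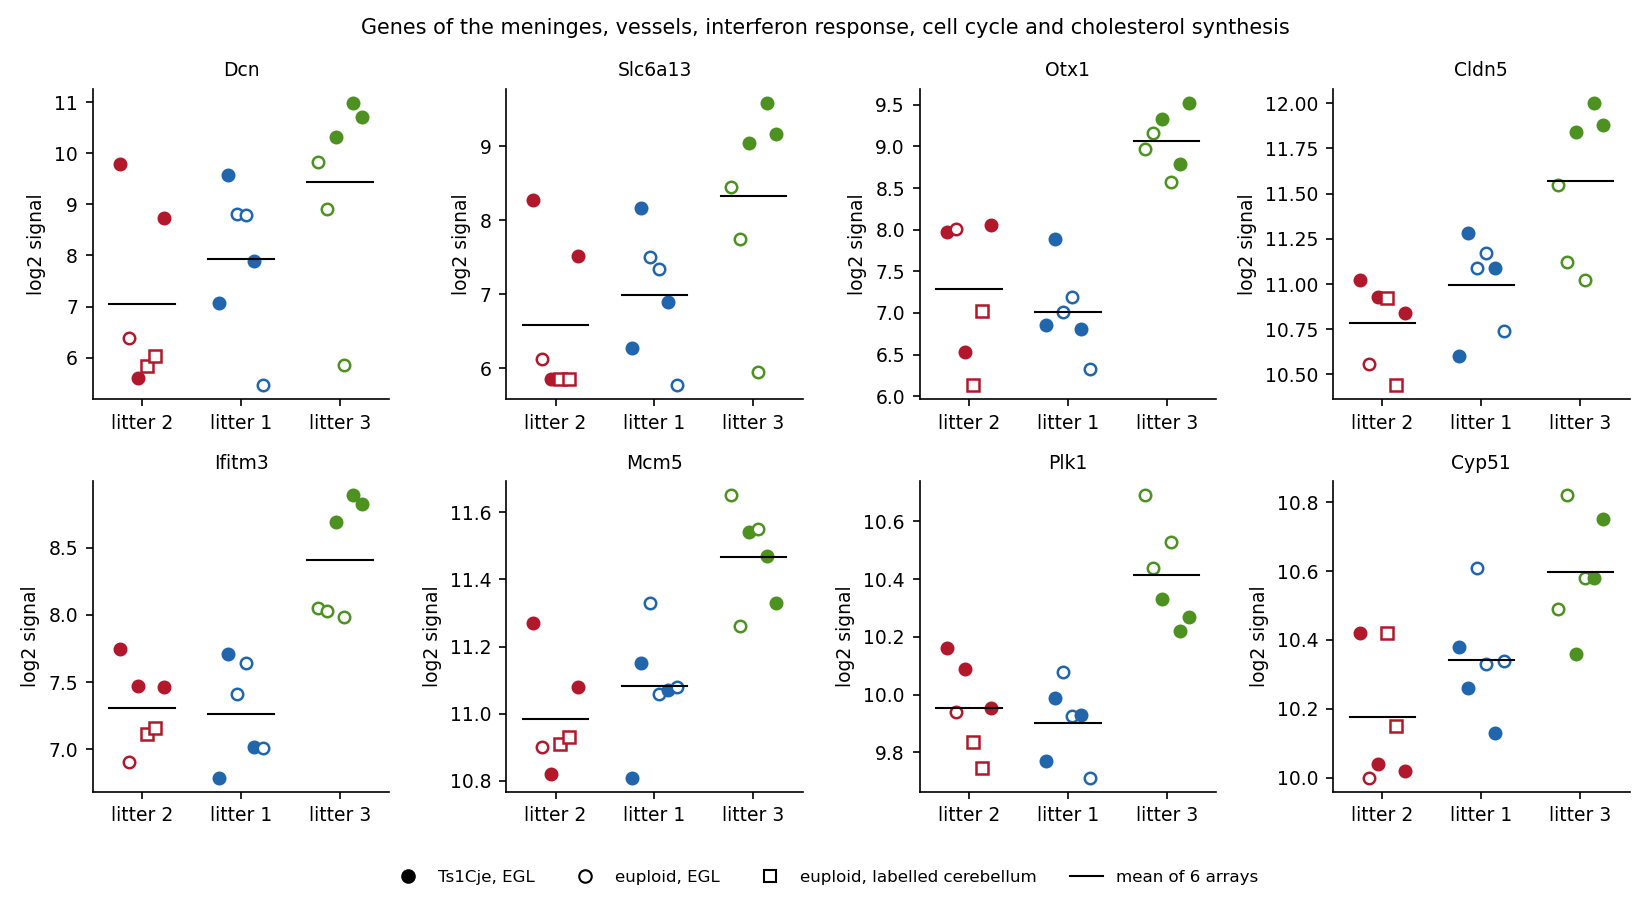
Log2 signal on each array of the homeobox gene Otx1 and of genes of the meninges (Dcn, Slc6a13), vessels (Cldn5), the interferon response (Ifitm3), DNA replication (Mcm5), mitosis (Plk1) and cholesterol synthesis (Cyp51). Otx1 and Ifitm3 of litter 2 lie below all mice of litter 3, while Dcn and Slc6a13 are high in replicates 1 and 6 of litter 2 and near the lowest signals in its other 4 mice.

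Genes of dividing cells were lower in litter 2 than in litter 3 by a smaller amount, and level with litter 1. Of 22 tested genes of S phase, 16 were lower (median -0.36), and of 17 genes of mitosis 11 were lower (median -0.34). Their medians against litter 1 were -0.01 and 0.05 and held no call. The mean signal of the S phase genes lay between 9.37 and 9.70 in litter 2, against 9.29 to 9.64 in litter 1 and 9.74 to 10.02 in litter 3, so that litters 2 and 3 did not overlap. Mcm5, a subunit of the replicative helicase, had signals of 11.27, 10.90, 10.82, 10.91, 10.93 and 11.08 in litter 2, against 10.81 to 11.33 in litter 1 and 11.26 to 11.65 in litter 3, and differed from litter 3 by -0.48 ± 0.0934 (adjusted p = 0.00491). Plk1, a kinase of mitotic entry, lay between 9.74 and 10.16 in litter 2, against 9.71 to 10.08 in litter 1 and 10.22 to 10.69 in litter 3 (-0.46 ± 0.0925, adjusted p = 0.00574). Without replicates 2 and 5 of litter 2, 7 genes of S phase and 3 of mitosis were lower, with medians of -0.32 and -0.28. Without the arrays labelled cerebellum 5 and 2 were lower.

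Promoters of replication genes are known for sites of E2F factors, which open S phase. The letters TTTCCCGC or TTTGGCGC, on either strand, were in the promoters of Mcm5, Mcm6, Mcm7 and Cdt1 among 15 lower genes of S phase with a promoter in RefSeq, and in 1.8% of 27025 genes. The 3 helicase subunits, of which Mcm6 (-0.40) and Mcm7 (-0.27 against litter 3) were named after their values were seen and were not called without replicates 2 and 5 (adjusted p = 0.0755 and 0.122; Mcm7 also not after quantile normalization, 0.0822), are shown with the letters in capitals, in the order GRCm38.p6 chr8:75109334-75109393, plus strand, chr1:128359782-128359841, minus strand, and chr5:138172015-138172074, minus strand.
Mcm5: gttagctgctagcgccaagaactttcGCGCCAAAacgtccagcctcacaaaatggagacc
Mcm6: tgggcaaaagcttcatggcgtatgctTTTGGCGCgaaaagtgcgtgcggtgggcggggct
Mcm7: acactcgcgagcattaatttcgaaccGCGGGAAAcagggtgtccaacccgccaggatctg
A match is a description of the letters and no site of binding was measured. The letters TTTGAA were in 7 of 9 promoters of the lower mitosis genes and in 20.2% of all genes, and CCAAT in 7 of 9 and 41.1%.

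Genes of the histone clusters, transcribed in S phase, were a set formed after their values were seen. Of 31 tested, 22 were lower than in litter 3 and none higher (median -0.37), while none was called against litter 1 (median 0.01). The 7 neighbours on Mmu13, H2ac15, H2bc15, H3c11, H2ac22, H2bc22, H2ac23 and H4c18 formed the longest of 133 runs of neighbouring genes called in 1 direction against litter 3. The mean of the 31 genes lay between 9.74 and 10.01 in litter 2, against 9.61 to 9.92 in litter 1 and 9.95 to 10.45 in litter 3. After quantile normalization 13 were lower, 4 without replicates 2 and 5 and 2 without the arrays labelled cerebellum. These genes are nearly identical copies, and a probe may read several of them.

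Cholesterol synthesis showed a like pattern, with 12 of 18 genes lower than in litter 3 (median -0.31) and none called against litter 1 (median -0.02). Cyp51, a sterol demethylase, had a median signal of 10.10 in litter 2, against 10.33 in litter 1 and 10.58 in litter 3 (-0.42 ± 0.0978, adjusted p = 0.0106). Hmgcs1, which makes the substrate of the rate-limiting step, differed from litter 3 by -0.31 ± 0.0792 (adjusted p = 0.0157). Without replicates 2 and 5 only 1 of the 18 genes were lower, and neither Cyp51 (adjusted p = 0.0625) nor Hmgcs1 (0.0852) did. Among 9 lower genes with a promoter in RefSeq, Hmgcs1 alone held TCACCCCAC, the letters of a sterol regulatory element (0.614% of all genes). All 9 held CCAAT. The stretch of Hmgcs1, GRCm38.p6 chr13:119690188-119690248, plus strand, has the letters in capitals.
Hmgcs1: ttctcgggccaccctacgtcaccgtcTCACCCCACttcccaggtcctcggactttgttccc

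Glial genes were lower than in litter 3 in part. Of 13 astroglial genes 5 were lower (4 without replicates 2 and 5), with a median of -0.34 against litter 3 and 0.14 against litter 1. The water channel Aqp4 had signals of 9.35, 8.46, 9.18, 8.85, 8.60 and 9.22 in litter 2, against 8.16 to 9.35 in litter 1 and 9.45 to 10.70 in litter 3. It differed from litter 3 without overlap (0.50-fold, SE 0.124 on the log2 scale, adjusted p = 0.000774, and 0.00577 without replicates 2 and 5). The lipid carrier Apoe differed by -1.06 ± 0.216 (adjusted p = 0.00621). Of the 2 tested genes of microglia, the lysosomal protein Laptm5 was lower than in litter 3 (-0.73 ± 0.171, adjusted p = 0.0107), and was not called without replicates 2 and 5 (adjusted p = 0.0707). The other, the Fc receptor subunit Fcer1g, passed the limit of 7.14 only through litter 3, with means of 6.88 in litter 2, 6.80 in litter 1 and 7.82 in litter 3. No gene of the 4 tested erythroid genes was called, and the beta globin Hbb-bs lay between 12.24 and 12.83 in litter 2, against 11.60 to 12.57 in litter 1 and 11.68 to 12.91 in litter 3.

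Of the lists on metabolism and stress, 8 of 13 chaperone genes, 6 of 18 genes of the unfolded protein response, 16 of 62 genes of the respiratory chain and 14 of 43 ribosomal protein genes were lower than in litter 3. Their medians were -0.30, -0.26, -0.20 and -0.17. Over all named genes, 13.6% were lower than in litter 3. After quantile normalization 4, 4, 7 and 3 were lower, and without replicates 2 and 5 the numbers were 2, 2, 4 and 3. Lower genes over all named genes also became fewer without these 2 arrays, as given above. Of the last 2 lists, the shares after quantile normalization were near or below the 9.02% of all genes. Among the 6 lower genes of the unfolded protein response, 1 (Sdf2l1) passed the limit on mean signal only through litter 3. Its difference is thus a description, and 5 lower genes remain without it.

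Few genes of the neuronal lists were called, and neuronal genes outside these lists were not counted. Sema6a, a transmembrane semaphorin of granule cells leaving the EGL, and Map2, a microtubule protein of dendrites, were named after their values were seen. Sema6a had signals of 10.11, 9.93, 10.05, 10.08, 10.01 and 10.37 in litter 2, against 10.46 to 10.99 in litter 1 and 9.37 to 10.04 in litter 3. It was lower than in litter 1 (-0.66 ± 0.0963, adjusted p = 0.000469) and higher than in litter 3 (0.46 ± 0.0963, adjusted p = 0.00709). Map2 differed likewise, by -0.50 ± 0.104 from litter 1 (adjusted p = 0.00767) and by 0.34 ± 0.104 from litter 3 (adjusted p = 0.0342). These were the only calls among the 18 tested genes of postmitotic granule cells, whose medians were -0.17 and -0.02. Nrxn3, a presynaptic adhesion protein (0.52 ± 0.108, adjusted p = 0.00703), Foxp2, a transcription factor of Purkinje cells (0.38 ± 0.086, adjusted p = 0.00919), and the axon guidance receptor Robo2, named after its values were seen (0.58 ± 0.0799, adjusted p = 0.000944), were higher than in litter 3. None of these 3 was called against litter 1, where the differences were -0.12, -0.16 and -0.01.

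Against litter 1, litter 2 differed most in genes whose signals fell into 2 levels. Rpl29, a protein of the large ribosomal subunit, had signals of 9.56, 9.93, 9.29, 9.24, 9.96 and 10.20 in litter 2. In litter 1 it had 6.50, 6.66, 6.66, 6.54 and 6.40 in 5 mice and 9.28 in replicate 4, and in litter 3 it lay between 9.39 and 10.38. The difference from litter 1 was 2.69 ± 0.361 (6.45-fold, adjusted p = 0.000255) and that from litter 3 was -0.07 ± 0.361. Atp2c1, also on Mmu9, showed the same mice at the same levels: 7.69, 7.96, 7.50, 7.76, 8.25 and 8.20 in litter 2, and in litter 1 a signal of 7.42 in replicate 4 and 5.99 to 6.09 in the other 5 mice. Its call against the mean of both litters (0.92 ± 0.176, adjusted p = 0.0217) came from litter 1 (1.64 ± 0.204, adjusted p = 0.000128). From litter 3 it differed by 0.20 ± 0.204. Without replicates 2 and 5 the call against the mean of both litters was lost (adjusted p = 0.0843). Aste1, Atp2c1 and Ppm1m formed the longest run of neighbouring genes called against litter 1. On Mmu9, 15 of 405 tested genes (3.70%) were higher than in litter 1, against 0.757% of all named genes, and 10 (2.47%) were lower.

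Other such genes, all named after their values were seen, lay on Mmu6 and Mmu4. Tmem106b, a lysosomal membrane protein on Mmu6, lay between 7.78 and 8.55 in litter 2, while in litter 1 replicate 1 had 8.04 and the other 5 mice 6.04 to 6.38, and in litter 3 replicate 5 had 6.31 and the others 7.82 to 8.66. Ptcd3, of the mitochondrial ribosome, lay between 7.31 and 8.67 in litter 2, and was at 6.13 to 6.38 in 4 mice of litter 1 and at 6.20 in replicate 5 of litter 3. In litter 2 every mouse was at the upper level of both genes. On Mmu6, 11 of 352 genes (3.12%) were higher than in litter 1, against 0.757% of all named genes. A further 10 genes of Mmu6 (2.84%) were lower, against 2.49% of all named genes.

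On Mmu4 litter 2 itself held both levels. Casp9, the initiator caspase of the mitochondrial death pathway, had signals of 8.88, 5.90, 8.77, 5.63, 8.87 and 5.80 in litter 2. In litter 1 all 6 mice were high (8.90 to 9.77), and in litter 3 replicates 5 and 6 were high (8.87 and 8.61) and the other 4 low (5.71 to 5.82). Mul1, a mitochondrial ubiquitin ligase, was high in the same 3 mice of litter 2, with signals of 8.55, 6.97, 8.33, 6.90, 8.38 and 7.01, and in the same mice of litters 1 and 3. Replicates 1, 3 and 5 of litter 2 include both genotypes and both an EGL and a cerebellum label. The differences from litter 1 were -2.23 ± 0.627 for Casp9 (adjusted p = 0.0427) and -1.34 ± 0.314 for Mul1 (adjusted p = 0.0169), and neither differed detectably from litter 3 (0.55 ± 0.627 and 0.06 ± 0.314). On Mmu4, 21 of 448 genes (4.69%) were lower than in litter 1, against 2.49% of all and 15 of 343 (4.37%) on Mmu17. Prdx2, a peroxiredoxin on Mmu8, was high in another set of mice of litter 2, with signals of 10.04, 5.90, 5.82, 9.96, 10.01 and 6.02, against 10.03 to 11.04 in litter 1 and 2 low mice (5.83 and 5.93) among 6 in litter 3. The standard errors of these genes are large because the mice of 1 litter stood at 2 levels. The mice have a mixed background, no genotypes of single loci were measured, and the origin of the 2 levels was not tested.

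**Figure D5:**
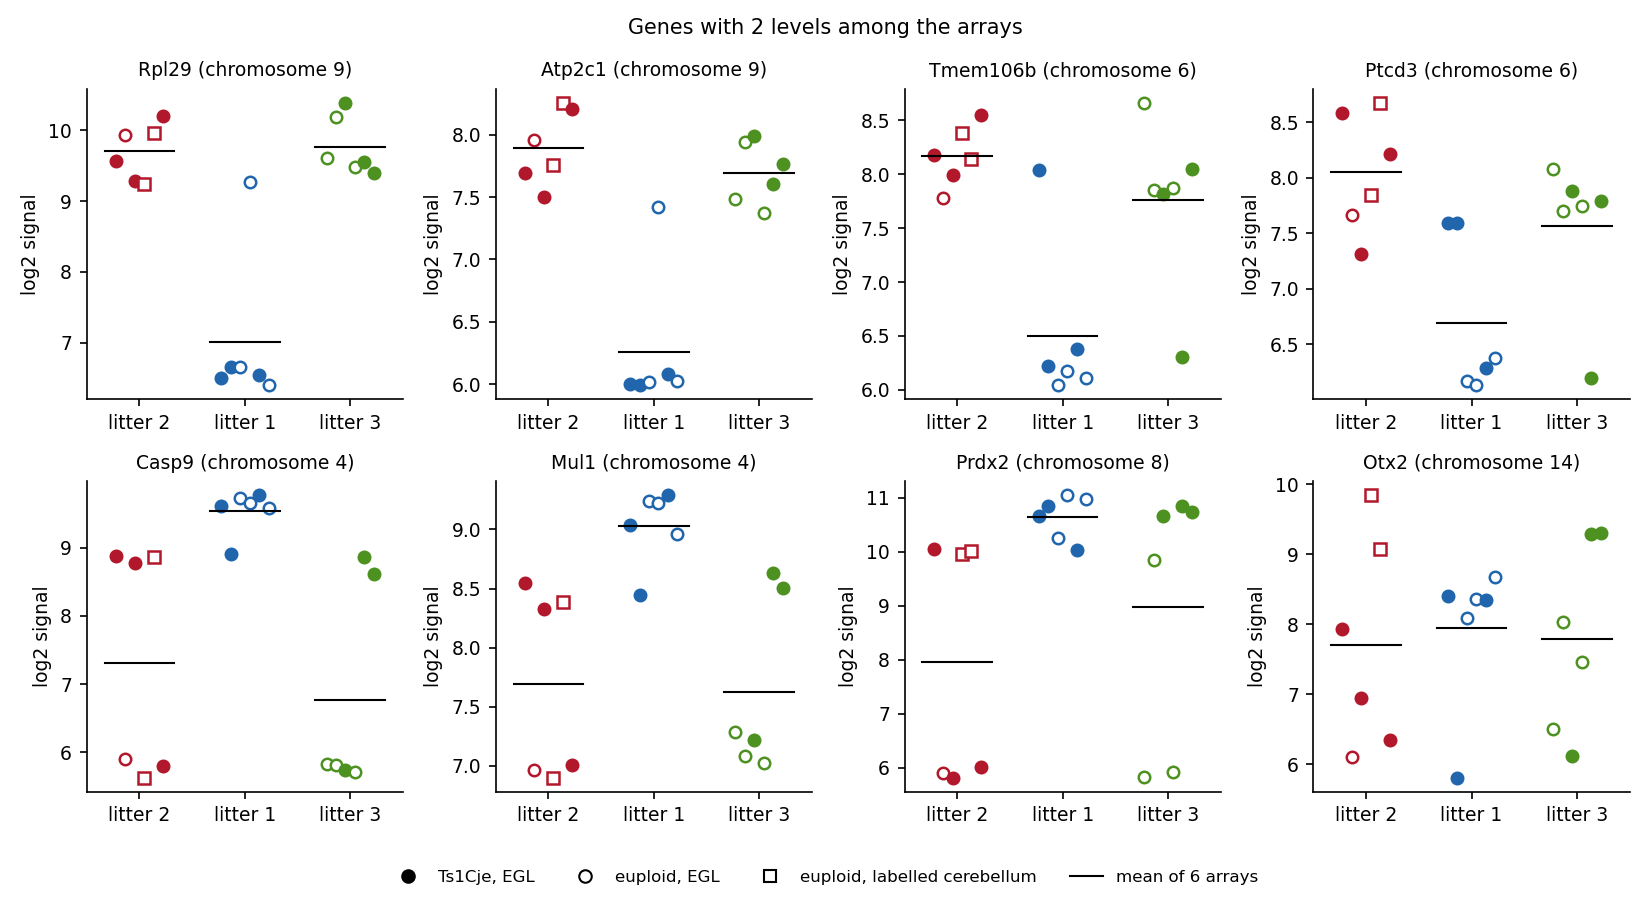
Log2 signal on each array of 8 genes, with the chromosome of each. Rpl29 and Atp2c1 are low in 5 mice of litter 1, Tmem106b and Ptcd3 are low in 5 and 4 mice of litter 1 and in 1 mouse of litter 3, and Casp9 and Mul1 are high in the same 3 mice of litter 2, while Prdx2 and Otx2 divide litter 2 in other ways.

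The 2 arrays of litter 2 labelled cerebellum were tested against the rest with litter and genotype in the fit. No probe was called by limma (0.0%), although 1036 had an unadjusted p below 0.05. The largest differences were 4.24 ± 1.28 for Prdx2 (adjusted p = 0.326) and 2.78 ± 0.913 for Otx2 (adjusted p = 0.387). Prdx2 was as high in the EGL-labelled replicate 1, and Otx2 had 9.84 and 9.07 in replicates 4 and 5, against 7.93, 6.11, 6.94 and 6.34 in the other 4 mice of litter 2. Abhd16a (2.42), Pdrg1 (2.22) and Enpp5 (2.14) followed, and on the lower side 1700123O20Rik (-1.57), Pisd-ps3 (-1.33), Cops8 (-1.29), Cyp11a1 (-1.26) and Csrp1 (-1.13), each with an adjusted p of 0.387 or more. These are 2 mice of 1 genotype in 1 litter, and label and mouse cannot be told apart in them.

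The genotype difference was then compared between litter 2 and the other litters. Within litter 2, 19 probes (0.168%) were called between Ts1Cje and euploid mice, with 7 after median scaling and 2 without replicates 2 and 5, which are 2 of the 3 euploid mice of the litter, and within litters 1 and 3 there were 44 (0.389%). Of the 27 tested three-copy genes, all 27 were above 0 in litter 2, with a median of 0.54, against 0.06 over all named genes. Of these 27, 6 were called higher, and they are the only named genes called higher there (6 of 7136, 0.0841%). In litters 1 and 3, 26 of the 27 were above 0, with a median of 0.41, against -0.04 over all named genes. There 13 of the 27 were called, among 26 named genes called higher (0.364%). The 1 gene not above 0 there was Sod1, which the study lists as over-expressed in this layer. On its brightest probe, used here, the Ts1Cje mice of litter 1 had 11.53, 11.91 and 11.75 and the euploid mice 12.02, 11.95 and 11.93. Gart, an enzyme of purine synthesis, had signals of 10.26, 9.78 and 10.03 in the Ts1Cje mice and 9.26, 9.48 and 9.33 in the euploid mice of litter 2, a difference of 0.66 ± 0.125 (adjusted p = 0.0395). Chaf1b, of the chromatin assembly factor, differed by 0.70 ± 0.108 (adjusted p = 0.0121) in litter 2 and by 0.42 ± 0.0762 (adjusted p = 0.0188) in litters 1 and 3. The test of the difference between these differences called none of the 27, with a median of 0.08, against 0.09 over all named genes.

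Over all probes that test called 1 (0.00885%), the unnamed ILMN_1254555. It had signals of 7.43, 7.10 and 7.50 in the Ts1Cje mice and 8.12, 7.94 and 8.15 in the euploid mice of litter 2 (-0.73 ± 0.114), against a difference of 0.23 ± 0.0802 in litters 1 and 3. The difference between them was -0.96 ± 0.139 (adjusted p = 0.0227). Among named genes the smallest adjusted p were those of St6galnac2 (-0.61, adjusted p = 0.257) and Ttc27 (-2.52, adjusted p = 0.299). Without replicate 4 of litter 2, however, 180 probes were called, 165 of them positive, and without replicate 1, 2, 3 or 5 none was.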

How the data were processed

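Signals were log2 values from Illumina Mouse-6 beadchips, which the authors deposited after scaling the arrays to a common mean signal over all 18. Each array read amplified RNA of the dissected layer of 1 mouse. The number of arrays limits the precision, and p-values measure the spread between mice within these 3 litters. Of 46632 probes, 29976 have 1 gene symbol, 10 several and 16646 none, and symbols were updated through Entrez for 29921. Probes were kept at a mean of at least 7.14. Fits used limma 3.58.1 in R 4.3.3 with a mean for each litter and a genotype term, and Benjamini-Hochberg adjustment over all probes tested. A gene is represented by its brightest tested probe. The fits were also run on simulated data with noise drawn independently for each probe and array. That simulation held no differences in spread between arrays. Litter 2 was placed midway between the other litters apart from set shifts, so variation between litters was not tested either. Named are the 12 called genes of largest difference each way, in each list up to 4 genes of smallest p and 2 of highest signal, and the leading genes of the label and genotype tests. The comparison and the lists were chosen with earlier results of these data known. Alternatives covered scaling, background, filters, covariates, block, test, weights and left-out arrays, and those without the 2 narrowest arrays were chosen after seeing the data. Promoter sequences are from RefSeq (GRCm38.p6), and the probes' own build is not given in the sources used here.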

Additional observations from a re-analysis of the deposited data

Results flagged for a closer look

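Of 237 groups of 6 signals examined, 11 had 1 mouse set apart by a gap above the Dixon critical value for 6 samples, where chance gives about 1 in 20. The numbers below are the gap over the whole range of the litter. In litter 1, replicate 4 was set apart upward for Rpl29 (0.909, signal 9.28 against a next signal of 6.66), Atp2c1 (0.934, 7.42 against 6.09) and 6430571L13Rik (0.665, 8.55 against 8.02), all on Mmu9. Replicate 1 of litter 1 stood high for Tmem106b (0.833, 8.04 against 6.38) and replicate 3 for Aldh4a1 (0.633, 8.86 against 8.60). Replicate 2 of litter 1 stood low for Casp9 (0.785, 8.90 against 9.58) and Otx2 (0.795, 5.81 against 8.09), and high for the mean of the astroglial genes (0.645, 10.89 against 10.69). In litter 3, replicate 5 stood low for Tmem106b (0.641, 6.31 against 7.82) and Ptcd3 (0.803, 6.20 against 7.71), both on Mmu6. In litter 2 the single case was the unnamed probe ILMN_1243988, with replicate 2, a narrow array, at 10.23 against 10.38 (0.662).

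The genotype difference of the unnamed probe ILMN_1254555 differed between litter 2 and litters 1 and 3 by -0.96 (limma, adjusted p = 0.0227). All 3 Ts1Cje mice were below all 3 euploid mice of litter 2. The call was lost after quantile normalization.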

How the results depend on the processing

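For litter 2 against litters 1 and 3, the 60 calls became 161 after quantile normalization, 200 with no filter, 182 with array weights and 184 after quantile normalization without the 2 narrowest arrays. They became 38 with slide position as a term, 14 with litters 1 and 3 as 1 group and 5 without the arrays labelled cerebellum. With litter as a random block and with the methods' t-test there were 0 after Benjamini-Hochberg (169 and 1703 at an unadjusted p below 0.05). There were 604 calls against litter 1 alone and 1646 against litter 3 alone. Leaving out each array in turn gave 28 to 654. Of the 30 named genes called, none changed sign under any alternative, 24 stayed called after quantile normalization, 10 with slide position and 3 without the 2 narrowest arrays.

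Against litter 1 there were 1066 calls with no filter and 1197 after quantile normalization without the 2 narrowest arrays, and 297 to 826 leaving out each array, with 402, 351 and 297 without replicates 3, 4 and 5 of litter 1. Against litter 3 there were 742 without the 2 narrowest arrays and 531 without the arrays labelled cerebellum, and 996 to 2399 leaving out each array, with 996 and 1058 without replicates 1 and 5 of litter 3. The cerebellum label gave 0 to 2 calls leaving out each array of litter 2. The genotype difference between litters gave 0 calls after quantile normalization (1277 at an unadjusted p below 0.05) and 0 to 180 leaving out each array of litter 2. Without the 2 narrowest arrays its 1 call was in the positive direction and so of another probe. The cause of these changes was not tested. No paired analysis was made, because the mice of different litters are different animals.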
